A study of Mus musculus with 8 samples.

Results

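The genes described here are 10 members of the EGF-ErbB signalling family, taken by gene symbol from the 55450 genes of the deposited count table. They were the receptor genes Egfr, Erbb2 and Erbb3 (3 genes) and the ligand genes Areg, Ereg, Epgn, Btc, Tgfa, Hbegf and Nrg1 (7 genes). They were compared among populations of thymic epithelial cells (TECs) sorted at embryonic day 17 (E17) as CD45-EpCAM+ cells from mouse embryos that all carried a Ccl21a-tdTomato knock-in reporter and a Tnfrsf11a(RANK)-Venus transgene. The 8 RNA-sequencing libraries, with total counts of 42751839 to 71625282, were 3 of tdTomato+Venus- cells (CCL21+RANK- TECs, written CCL21+ TECs below), 3 of tdTomato-Venus+ cells (CCL21-RANK+ TECs, written RANK+ TECs) and 2 of cells with neither reporter (CCL21-RANK- TECs, written reporter-negative TECs). The sort therefore rests on the Ccl21a locus for tdTomato and on the Venus transgene for RANK, and the sources do not state how many embryos went into a library. The study calls its replicates biological, but the sources do not state that libraries of a group came from separate embryos, so the p-values measure only the spread between these samples.

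ErbB receptors are membrane tyrosine kinases that pair on ligand binding and signal through the RAS-ERK, PI3K-AKT and STAT pathways. EGF, TGF-alpha, amphiregulin and epigen bind EGFR, and betacellulin, epiregulin and HB-EGF bind EGFR or ERBB4. Neuregulin-1 binds ERBB3 and ERBB4, whereas ERBB2 has no known ligand of its own and acts as a partner, and ERBB3 has a weak kinase and depends on that partner. The ligands are made as membrane precursors that are cut free by ADAM proteases. In the thymus, the medullary TECs that respond to RANK ligand include those that express Aire, whereas CCL21 is made by another set of medullary TECs that attracts thymocytes to the medulla.

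The promoters of the ligand genes that lie side by side on chromosome 5 and of Egfr are printed first, because these neighbours were high in the same libraries and Egfr was low in them. Of the 10 members, 6 had an entry in the RefSeq promoter table (GRCm38.p6), namely Egfr, Erbb2, Areg, Epgn, Btc and Tgfa. Each line gives the 250 bases before the RefSeq start, 5′ to 3′ on the strand of the gene, with TATAAA, TGACGTCA (a cyclic AMP response element) and GGGCGG (a GC box) in capitals where they occur on either strand. The windows are chr5:91139349-91139598 (plus strand) for Areg, chr5:91027267-91027516 (plus strand) for Epgn, chr5:91402995-91403244 (minus strand) for Btc and chr11:16751953-16752202 (plus strand) for Egfr.
Areg: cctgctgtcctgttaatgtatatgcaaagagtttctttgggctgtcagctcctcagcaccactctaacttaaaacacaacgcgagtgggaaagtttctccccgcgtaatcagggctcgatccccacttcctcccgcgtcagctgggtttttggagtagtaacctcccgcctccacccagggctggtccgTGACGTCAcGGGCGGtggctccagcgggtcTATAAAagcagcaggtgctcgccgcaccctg
Epgn: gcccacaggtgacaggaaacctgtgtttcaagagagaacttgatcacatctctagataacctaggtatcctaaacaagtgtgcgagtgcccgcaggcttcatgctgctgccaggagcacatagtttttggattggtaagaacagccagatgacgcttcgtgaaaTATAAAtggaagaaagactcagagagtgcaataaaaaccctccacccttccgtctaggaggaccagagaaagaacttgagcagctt
Btc: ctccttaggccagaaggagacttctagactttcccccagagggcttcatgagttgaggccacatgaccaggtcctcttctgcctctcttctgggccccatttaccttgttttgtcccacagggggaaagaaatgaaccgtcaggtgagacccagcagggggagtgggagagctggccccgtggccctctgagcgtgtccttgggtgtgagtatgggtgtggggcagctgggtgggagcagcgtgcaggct
Egfr: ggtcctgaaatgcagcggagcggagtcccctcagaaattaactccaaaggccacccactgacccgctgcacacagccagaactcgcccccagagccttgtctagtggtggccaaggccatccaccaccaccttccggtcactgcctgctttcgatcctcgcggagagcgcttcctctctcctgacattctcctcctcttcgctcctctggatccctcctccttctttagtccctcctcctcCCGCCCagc

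Counted back from the base before the start, the Areg window held TGACGTCA at -61 to -54, GGGCGG at -52 to -47 and TATAAA at -31 to -26. The Epgn window held TATAAA at -86 to -81, the Egfr window held GGGCGG on the opposite strand at -9 to -4, and the Btc window held none of these motifs. The motifs do not overlap one another in these windows. Among all 32851 promoters of the table, windows of the same length held TATAAA on either strand in 12.4%, TGACGTCA, which reads the same on both strands, in 1.55%, and GGGCGG on either strand in 32.7%. The window of Tgfa, not printed, held GGGCGG at -126 to -121 and on the opposite strand at -15 to -10, and that of Erbb2 held none of the 3. The windows held 15 CG pairs for Areg, 5 for Epgn, 4 for Btc, 11 for Egfr, 16 for Erbb2 and 19 for Tgfa, against a median of 6.0 over all promoters. A match is a description of these letters and was not tested against binding of any factor.

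Each gene's level was calculated as RPKM, counts scaled to summed exon length and to the library's total count, so that genes of different length can be compared. Differences between groups were tested on the rounded expected counts with the quasi-likelihood test of edgeR in 1 fit of all 8 libraries and 21451 genes, with Benjamini-Hochberg adjustment over all of them. The test gives no SE, so the SE was calculated as the absolute log2 fold change divided by the square root of the F statistic. A gene was called where the adjusted p was under 0.05, the fold change exceeded 1.5 and the group with more of it had a mean above 1 RPKM. All 10 members passed the filter on low counts, but Areg, Ereg and Epgn, with at most 4 counts in any other library, passed it only through the RANK+ libraries, so that a difference was given for these 3 by the filter, and no p is printed for them. Tnfrsf11a, which encodes RANK, was at 111, 93.1 and 107 RPKM in the RANK+ libraries and at most 10.3 RPKM elsewhere, and Ccl21a was highest in the CCL21+ libraries (305 to 561 RPKM). Against the CCL21- part of their label, the RANK+ libraries held Ccl21a at 78.2 to 152 RPKM, above the 6.88 and 8.87 RPKM of the reporter-negative libraries (log2 fold change 3.66, SE 0.35, adjusted p = 2.49e-05, edgeR). Epcam was present in every library (49.5 to 156 RPKM), and Aire was at 131, 94.1 and 114 RPKM in RANK+ TECs and under 1 RPKM in the others.

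RANK+ TECs had less Egfr and more Erbb2, Erbb3 and Tgfa, Hbegf, Nrg1, Btc, Areg and Epgn transcripts than both other populations. Between CCL21+ and RANK+ TECs, 9 of the 10 members were called, 8 of them higher in RANK+ TECs and Egfr higher in CCL21+ TECs, where 30.8% of all tested genes were called (15.4% in each direction). Between RANK+ and reporter-negative TECs, the counts were again 8 higher and 1 lower in RANK+ TECs, where 29.5% of tested genes were called (14.4% higher and 15.1% lower). Ereg was the member not called in either comparison, because its mean level stayed under 1 RPKM. By adjusted p alone all 10 members passed in both comparisons, as 53.7% and 49% of tested genes did. Both comparisons use the same RANK+ libraries. In TMM-scaled counts, the libraries of the groups compared did not overlap for any of the 10 members, which was so for 61.2% of tested genes against CCL21+ TECs (33.7% with RANK+ libraries above) and 68.8% against reporter-negative TECs (36.1% with RANK+ libraries above). In 9 of the 10 members every RANK+ library was above the 5 other libraries, which was so for 28.2% of tested genes, and in Egfr every one was below them, which was so for 22.9%. These counts include Areg, Ereg and Epgn. The other 7 members, with at least 10 counts in every library, were all called in both comparisons, 6 of them higher in RANK+ TECs and Egfr lower. Their median log2 fold change was 2.59 for RANK+ over reporter-negative TECs, beside 0.06 over all genes tested, and -2.27 for CCL21+ over RANK+ TECs, beside -0.11. In bulk samples, fewer cells of a type and less RNA per cell cannot be told apart.

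**Figure D1:**
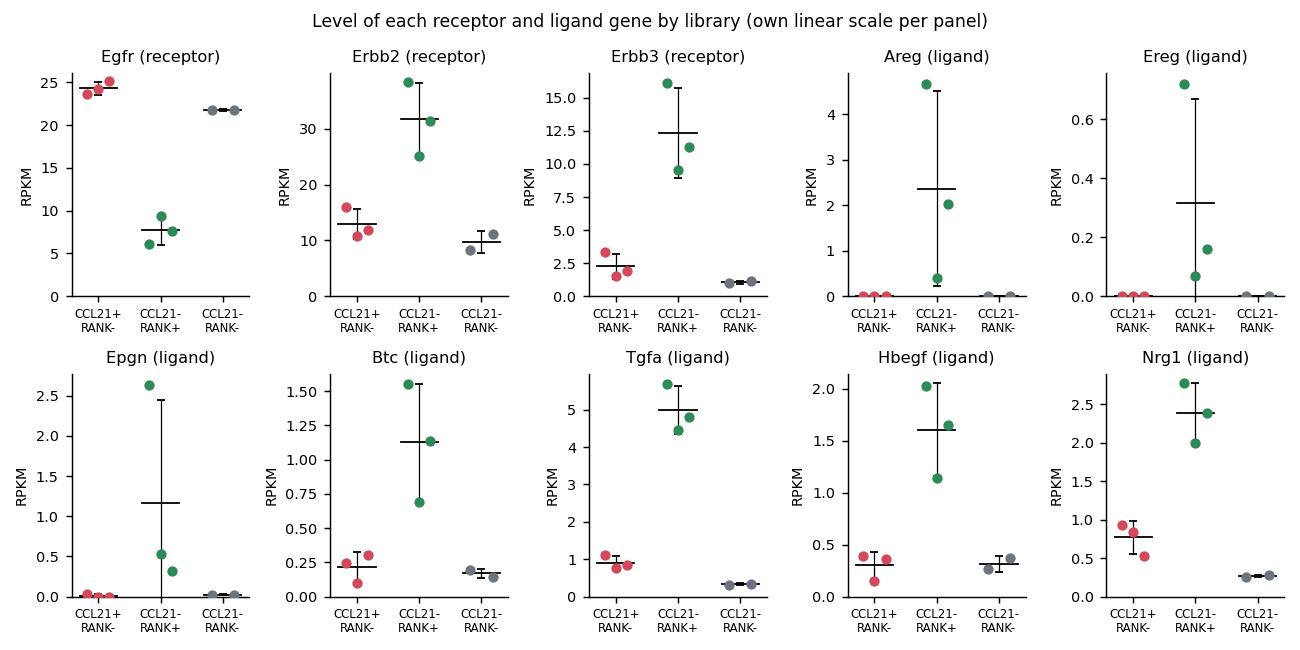
RPKM (vertical axis, linear from 0, own scale in each panel) of the 10 receptor and ligand genes in the 3 sorted TEC populations (horizontal axis). Points are libraries, in replicate order within a group, horizontal lines are group means and bars are the SD. The RANK+ libraries sit below all others for Egfr and above all others for the 9 remaining genes.

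Among the receptors, Egfr (chr11:16752203-16918158, plus strand), which binds EGF, TGF-alpha and amphiregulin, was at 23.6, 24.2 and 25.1 RPKM in the CCL21+ libraries, 6.08, 9.41 and 7.60 RPKM in the RANK+ libraries and 21.8 and 21.7 RPKM in the reporter-negative libraries. The RANK+ libraries were the lowest, with no overlap. The log2 fold change of RANK+ TECs was -1.77 (SE 0.18, adjusted p = 2.7e-05) against CCL21+ TECs and -1.61 (SE 0.19, adjusted p = 9.7e-05) against reporter-negative TECs. CCL21+ over reporter-negative TECs gave a log2 fold change of 0.16 (SE 0.19, adjusted p = 0.676), which did not pass the test. A list of 6 cortical TEC markers was lower in the same libraries as Egfr, with summed levels of 2920, 2490 and 2890 RPKM in CCL21+, 209, 314 and 191 RPKM in RANK+ and 2100 and 2260 RPKM in reporter-negative libraries. Ctsl was its most abundant gene in the CCL21+ and RANK+ libraries and Prss16 in the others, no marker of the list was at 0, and the part of such cells in the Egfr level was not tested. The antisense gene Egfros lies within Egfr, whether the counting used strand is not given in the sources used here, and it was at 0.705 to 2.21 RPKM, well under Egfr in every library.

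Erbb2 (chr11:98412470-98437716, plus strand), the partner receptor, went the other way. It was at 15.9, 10.8 and 11.9 RPKM in the CCL21+ libraries, 38.4, 25.2 and 31.4 RPKM in the RANK+ libraries and 8.31 and 11.1 RPKM in the reporter-negative libraries, and the RANK+ libraries did not overlap with the rest. The log2 fold change of RANK+ TECs was 1.17 (SE 0.17, adjusted p = 0.000299) against CCL21+ and 1.59 (SE 0.20, adjusted p = 0.000133) against reporter-negative TECs. Mien1, on the opposite strand at the end of Erbb2, was at 22.7 to 40.3 RPKM, with means of 27.2, 33.5 and 27.8 RPKM in CCL21+, RANK+ and reporter-negative TECs.

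Erbb3 (chr10:128567523-128589652, minus strand), the neuregulin receptor that signals with ERBB2, differed most among the receptors. It was at 3.35, 1.51 and 1.94 RPKM in the CCL21+ libraries, 16.1, 9.54 and 11.3 RPKM in the RANK+ libraries and 0.976 and 1.12 RPKM in the reporter-negative libraries, so that the 3 groups did not overlap. The log2 fold change of RANK+ TECs was 2.31 (SE 0.27, adjusted p = 7.87e-05) against CCL21+ and 3.42 (SE 0.34, adjusted p = 2.95e-05) against reporter-negative TECs. Erbb3 was also the 1 member called between CCL21+ and reporter-negative TECs (log2 fold change 1.11, SE 0.30, adjusted p = 0.0445), where 8.02% of all tested genes were called (4.35% higher in CCL21+ and 3.66% higher in reporter-negative TECs). By adjusted p alone 3 of 10 members passed there (11.4% of tested genes), and for 5 of 10 members every CCL21+ library was above both reporter-negative libraries in TMM-scaled counts (20.1% of tested genes, where 44.4% did not overlap in either direction). One of the 5 was Erbb2, whose RPKM values overlapped there. The call of Erbb3 was lost without CCL21+ replicate 1 (log2 fold change 0.72, adjusted p = 0.064), without RANK+ replicate 3 (adjusted p = 0.0718) and without either reporter-negative library (adjusted p = 0.218 and 0.217). CCL21+ replicate 1, the highest of its group for Erbb3, was also the highest for a list of 6 parathyroid markers, whose values are given with Egf and Erbb4, and the part of such cells was not tested.

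The order of the receptor levels within a population changed with these differences. Egfr was above Erbb2 and Erbb2 above Erbb3 in each of the 5 libraries of CCL21+ and reporter-negative TECs, without overlap of the ranges. In RANK+ TECs Erbb2 was first (mean 31.7 RPKM ± 6.61, SD, n = 3), Erbb3 second (12.3 ± 3.38) and Egfr last (7.70 ± 1.66). The latter pair is not separated firmly, since with the longest transcript as the length Egfr reached 10.4 RPKM in replicate 2, above the 9.54 RPKM of Erbb3. Egfr made up 61.9% ± 6.05 (SD, n = 3) of the summed receptor RPKM in CCL21+ and 67% ± 4.31 (n = 2) in reporter-negative TECs but 15.5% ± 5.66 (n = 3) in RANK+ TECs. Erbb2 made up 61% ± 3.41 and Erbb3 23.5% ± 2.63 of it in RANK+ TECs.

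**Figure D2:**
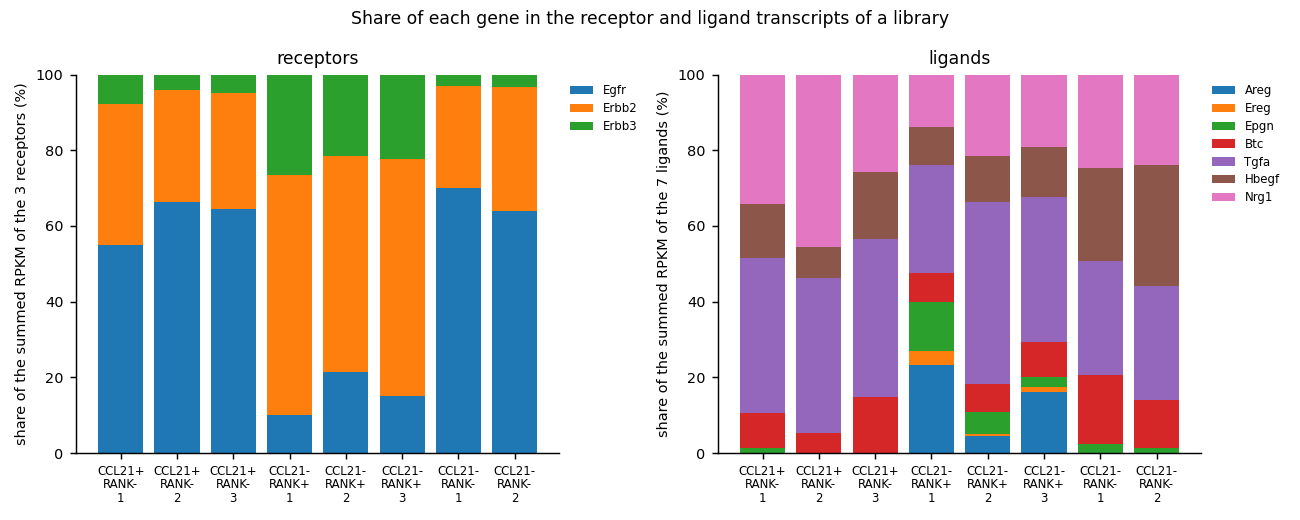
Share (%, vertical axis) of each gene in the summed RPKM of the 3 receptors (left) and 7 ligands (right) in each of the 8 libraries (horizontal axis, population and replicate). Egfr holds 55% to 70.1% of the receptor sum in the libraries of the CCL21+ and reporter-negative populations and 10% to 21.3% in the RANK+ libraries, and Areg and Ereg appear only in the RANK+ libraries.

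Among the ligands, Areg (chr5:91139599-91148432, plus strand), which encodes amphiregulin, had 0 counts in all 5 libraries of the RANK- populations and 325, 25 and 105 counts in the RANK+ libraries, which is 4.67, 0.410 and 2.02 RPKM. With a floor of 3 counts over a group of libraries, Areg was at least 138-fold higher in RANK+ than in CCL21+ TECs and at least 119-fold higher than in reporter-negative TECs. These bounds were 74.5-fold and 64.3-fold without RANK+ replicate 1. Ereg (chr5:91074622-91093646, plus strand), which encodes epiregulin, was likewise at 0 counts in the same 5 libraries and had 170, 14 and 28 counts in the RANK+ libraries, which is 0.719, 0.0676 and 0.159 RPKM. It was at least 62.2-fold higher than in CCL21+ TECs and at least 53.7-fold higher than in reporter-negative TECs, and 23.7-fold and 20.4-fold were the bounds without replicate 1. No fold is given between the 2 RANK- populations, where both genes were at 0.

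Epgn (chr5:91027464-91035215, plus strand), which encodes epigen, had 4, 0 and 0 counts in the CCL21+ libraries and 3 and 2 in the reporter-negative libraries, against 273, 48 and 25 in the RANK+ libraries (2.64, 0.530 and 0.324 RPKM). All RANK+ libraries were above the rest. The fitted log2 fold change was 6.16 against CCL21+ and 5.61 against reporter-negative TECs. A difference was given here by the filter on low counts. The call against reporter-negative TECs was lost without either reporter-negative library. Coded as CCL21+ over RANK+ TECs, the log2 fold change was -4.83 without RANK+ replicate 1. That of RANK+ over reporter-negative TECs was then 4.27. Without CCL21+ replicate 1 the CCL21+ group was at 0 counts, and no fold is given. Btc (chr5:91357261-91402994, minus strand), which encodes betacellulin, was at 0.248, 0.0962 and 0.305 RPKM in the CCL21+ libraries, 1.55, 0.693 and 1.14 RPKM in the RANK+ libraries and 0.194 and 0.145 RPKM in the reporter-negative libraries. Its log2 fold change was 2.27 (SE 0.46, adjusted p = 0.00244) against CCL21+ and 2.59 (SE 0.55, adjusted p = 0.00349) against reporter-negative TECs. Without RANK+ replicate 1, the mean levels of Epgn and Btc fell below 1 RPKM and 7 members were called in each comparison.

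Areg, Ereg and Epgn were thus at or near 0 outside RANK+ TECs, and within them all 3 were highest in replicate 1, as were the 6 other members with more transcript in RANK+ TECs. RANK+ replicate 1 was also the highest library for the 5 mature medullary TEC markers (917, 649 and 727 RPKM summed in the RANK+ libraries and 173 to 295 RPKM in the others, led by H2-Aa, none at 0) and for the mesenchymal, haematopoietic and endothelial marker lists, but not for the erythroid list. The 6 mesenchymal markers summed to 48.9, 25.1 and 31.1 RPKM in the RANK+ libraries and to 1.33 to 3.27 RPKM in the others, with Col1a1 or Dcn the most abundant gene and none at 0. Of the 6, Pdgfrb, Col1a1, Dcn and Lum were called higher in RANK+ TECs against both populations, whereas Col3a1 was called against neither (adjusted p = 0.0792 and 0.927) and Pdgfra, under 1 RPKM throughout, was at a mean of 0.068 RPKM in RANK+ and 0.196 RPKM in CCL21+ TECs. The 10 haematopoietic markers summed to 22.3, 9.18 and 16 RPKM in the RANK+ libraries and to 2.83 to 10.1 RPKM in the others, led by Rag1 or Lck, with none at 0 in RANK+ libraries and Itgax, Itgam, Cd79a or Tyrobp at 0 in others. Ptprc, which encodes the CD45 used to remove blood cells, was at 0.576, 0.177 and 0.422 RPKM in the RANK+ libraries and 0.0351 to 0.193 RPKM in the others. The 5 endothelial markers summed to 4.08, 2.2 and 1.9 RPKM (led by Tek, with Emcn at 0 in replicate 3) and to 0.127 to 0.45 RPKM in the others. The 4 erythroid markers summed to 141, 232 and 238 RPKM in the RANK+ libraries, 5.46, 130 and 44 RPKM in the CCL21+ libraries and 365 and 44.8 RPKM in the reporter-negative libraries, led by a globin gene. The part of such cells in the levels of the members was not tested.

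Tgfa (chr6:86195223-86275719, plus strand), which encodes TGF-alpha, had the highest mean level of the ligands in RANK+ TECs. It was at 1.11, 0.764 and 0.853 RPKM in the CCL21+ libraries, 5.70, 4.47 and 4.80 RPKM in the RANK+ libraries and 0.318 and 0.349 RPKM in the reporter-negative libraries, and the 3 groups did not overlap. The log2 fold change of RANK+ TECs was 2.33 (SE 0.17, adjusted p = 3.66e-06) against CCL21+ and 3.78 (SE 0.21, adjusted p = 1.3e-06) against reporter-negative TECs. Hbegf, on chromosome 18, encodes HB-EGF and was at 0.388, 0.153 and 0.364 RPKM in the CCL21+ libraries, 2.03, 1.14 and 1.65 RPKM in the RANK+ libraries and 0.261 and 0.367 RPKM in the reporter-negative libraries. Its log2 fold change was 2.29 (SE 0.37, adjusted p = 0.000626) against CCL21+ and 2.23 (SE 0.43, adjusted p = 0.00207) against reporter-negative TECs. The levels of the 2 RANK- populations overlapped for Hbegf.

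Nrg1 (chr8:31814551-32884029, minus strand), the neuregulin that binds ERBB3, was at 0.932, 0.844 and 0.528 RPKM in the CCL21+ libraries, 2.77, 1.99 and 2.38 RPKM in the RANK+ libraries and 0.259 and 0.275 RPKM in the reporter-negative libraries. The groups did not overlap, and the order matched that of Erbb3. The marker list without reported values was also higher in every RANK+ library, and the part of such cells in the Nrg1 level was not tested. The log2 fold change of RANK+ TECs was 1.49 (SE 0.24, adjusted p = 0.000575) against CCL21+ and 3.03 (SE 0.30, adjusted p = 2.97e-05) against reporter-negative TECs. Tgfa and Nrg1 also differed between the 2 RANK- populations, with a log2 fold change of CCL21+ over reporter-negative TECs of 1.45 (SE 0.19, adjusted p = 0.00169) and 1.54 (SE 0.28, adjusted p = 0.00754). Neither was called there, because their mean levels of 0.909 and 0.768 RPKM were under the threshold of 1 RPKM, and with the longest transcript as the length both passed it. Nrg1 missed the p threshold there without either reporter-negative library (adjusted p = 0.0635 and 0.082).

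The ligand transcripts together summed to 2.21 RPKM ± 0.452 (SD, n = 3) in CCL21+, 14 RPKM ± 5.55 (n = 3) in RANK+ and 1.10 RPKM ± 0.0636 (n = 2) in reporter-negative TECs. In RANK+ TECs the order by mean level was Tgfa (4.99 RPKM), Nrg1 (2.38), Areg (2.37), Hbegf (1.60), Epgn (1.16), Btc (1.13) and Ereg (0.315). The ranges of Tgfa and Nrg1 were apart, whereas each neighbouring pair after that overlapped. In CCL21+ TECs Tgfa (0.909) and Nrg1 (0.768) overlapped and were followed by Hbegf (0.302) and Btc (0.217), which overlapped too. In reporter-negative TECs Tgfa (0.333), Hbegf (0.314) and Nrg1 (0.267) were close together and Btc (0.169) was lower. With the longest transcript as the length, Nrg1 came first in CCL21+ TECs (1.47 RPKM, Tgfa 1.30) and Hbegf in reporter-negative TECs (0.525 RPKM, Tgfa 0.477), and Tgfa stayed first in RANK+ TECs (7.16 RPKM, Nrg1 4.56).

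**Figure D3:**
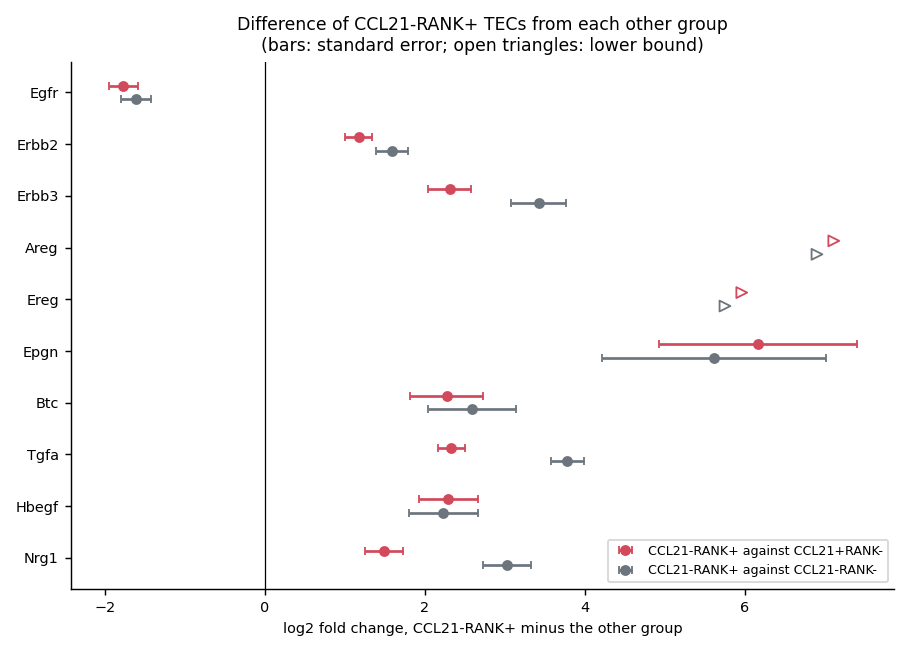
Log2 fold change (horizontal axis) of RANK+ TECs over CCL21+ (red) and reporter-negative (grey) TECs for the 10 genes (vertical axis) from the edgeR fit. Bars are standard errors calculated from the F statistic of the test. Open triangles are lower bounds for Areg and Ereg, which had 0 counts in the other groups. For Areg, Ereg and Epgn, a difference was given by the filter on low counts. Egfr is left of 0 in both comparisons and the other genes are right of 0.

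Areg, Ereg, Epgn and Btc lie together on chromosome 5, and 11 other protein-coding genes within 500 kb of them passed the filter. Of these, Rassf6, Ppbp and Parm1 were called higher in RANK+ TECs against both other populations, where 11.8% of all tested genes were called higher than in both, and the other 8 were called in neither comparison. Mthfd2l, next to Epgn, did not pass the test (0.898, 1.01 and 0.980 RPKM in CCL21+, 0.888, 1.01 and 0.841 RPKM in RANK+ and 1.15 and 0.882 RPKM in reporter-negative libraries, adjusted p = 0.49 and 0.385 for RANK+ against each). On the other side, Parm1, next to Btc, was called higher in RANK+ TECs against both, at 94.9, 70.1 and 70.9 RPKM beside 39.2 to 47.6 and 19.9 to 22.9 RPKM. Rassf6, of the RAS association domain family, lies beyond the chemokine genes and was at 8.87, 8.11 and 8.29 RPKM in the RANK+ libraries, 4.13, 3.41 and 3.73 RPKM in the CCL21+ libraries and 2.51 and 2.92 RPKM in the reporter-negative libraries. Between it and Mthfd2l lies a run of CXC chemokine genes. Of these, Ppbp was called higher in RANK+ TECs against both (2.64, 0.424 and 1.12 RPKM, and at most 0.0838 RPKM in other libraries). Cxcl3 was higher by adjusted p against both, but its RANK+ mean of 0.642 RPKM was under 1 RPKM, so it was not called. Outside this run, 5830473C10Rik was also higher by adjusted p against both and not called, with a RANK+ mean of 0.14 RPKM. Cxcl1 was not called (adjusted p = 0.0545 and 0.272). Pf4 passed the p threshold against CCL21+ TECs but not reporter-negative TECs (adjusted p = 0.0113 and 0.427), and both Pf4 and Cxcl2 had means under 1 RPKM. Ppbp, Cxcl3, Cxcl2 and 5830473C10Rik passed the filter on low counts only through the RANK+ libraries, so that a difference was given for them by the filter. The flanking genes named were chosen after their values were seen.

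**Figure D4:**
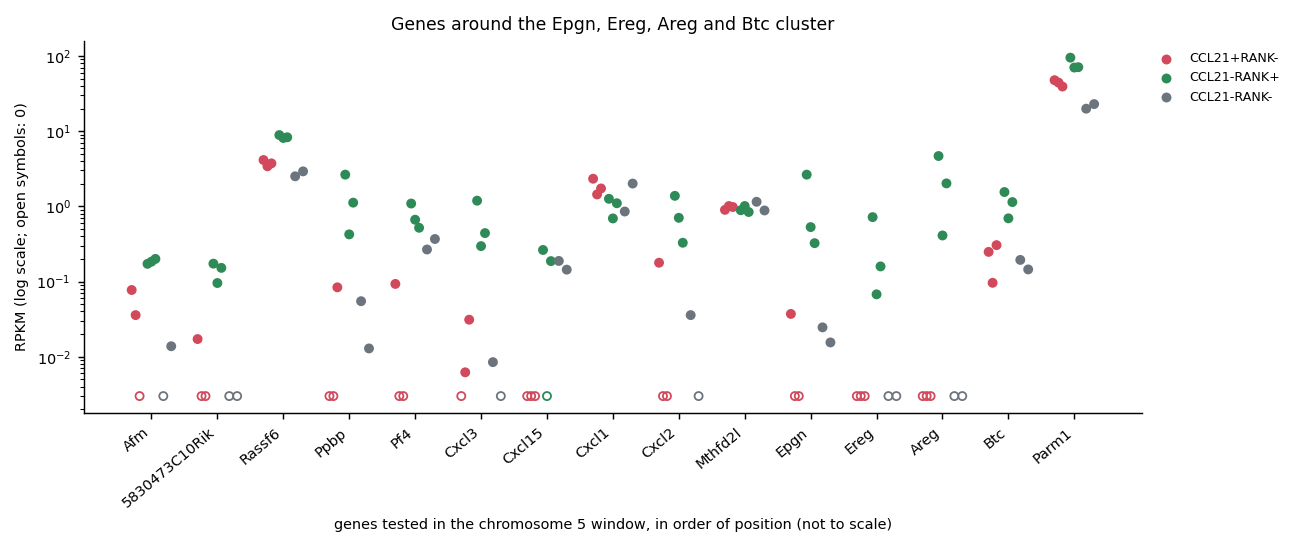
RPKM (vertical axis, log scale, open symbols for 0) of the tested genes within 500 kb of the Epgn, Ereg, Areg and Btc cluster, in order of position and not to scale (horizontal axis), with 1 point per library coloured by population. The 4 ligand genes, Rassf6, Ppbp and Parm1 are highest in RANK+ libraries, and Mthfd2l overlaps among the 3 populations.

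Of the family's remaining receptor and ligands, Erbb4 and Egf were highest in CCL21+ TECs. Erbb4, a receptor for neuregulins and for betacellulin, HB-EGF and epiregulin, was at 2.31, 0.695 and 0.499 RPKM in the CCL21+ libraries, 0.116, 0.0323 and 0.142 RPKM in the RANK+ libraries and 0.006 and 0.0136 RPKM in the reporter-negative libraries. Egf was at 2.52, 0.862 and 0.710 RPKM in the CCL21+ libraries, 0.379, 0.138 and 0.0830 RPKM in the RANK+ libraries and 0.126 and 0.149 RPKM in the reporter-negative libraries. Both were called higher in CCL21+ TECs than in each other population, with a log2 fold change over RANK+ TECs of 3.74 (SE 0.68, adjusted p = 0.00132) for Erbb4 and 2.91 (SE 0.61, adjusted p = 0.00286) for Egf. Over reporter-negative TECs it was 6.89 for Erbb4 (SE 1.00, adjusted p = 0.00245) and 3.32 for Egf (SE 0.73, adjusted p = 0.0186). The 6 parathyroid markers moved with them, at a summed 7250, 1810 and 2030 RPKM in the CCL21+ libraries and 22.6 to 57.7 RPKM in the others. Chga was the most abundant of them in CCL21+ libraries, Pth was at 3000, 848 and 906 RPKM, and none was at 0. Without replicate 1, the highest for all of these, the log2 fold change over RANK+ TECs was 2.78 for Erbb4 (adjusted p = 0.00366) and 2.13 for Egf (adjusted p = 0.00919), but as both then had a CCL21+ mean under 1 RPKM, neither was called. The part of parathyroid cells was not tested. The call of Egf over reporter-negative TECs was lost without either reporter-negative library (adjusted p = 0.133 and 0.142). Nrg2, Nrg3 and Nrg4, further neuregulin genes, were under 1 RPKM in all libraries and so not called. By adjusted p alone Nrg2 and Nrg4 were higher in RANK+ than in CCL21+ TECs (adjusted p = 0.00611 and 0.0047), and Nrg4 was also higher than in reporter-negative TECs (adjusted p = 0.0494), where Nrg2 did not pass (adjusted p = 0.849). Nrg3 had 0 counts in the CCL21+ libraries and at most 0.123 RPKM in the RANK+ libraries. Nrg4 was at 0.187, 0.236 and 0.135 RPKM in the RANK+ libraries and at most 0.0529 RPKM in the others.

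The genes that shed, relay or restrain the family's signals were described from 5 lists of 82 genes in all, including the 5 just given, and all 82 passed the filter. Between CCL21+ and RANK+ TECs, 18 of the 82 were called higher and 24 lower in RANK+ TECs, and the counts against reporter-negative TECs were 19 higher and 22 lower. These are 51.2% and 50% of the list genes, beside the 30.8% and 29.5% of all tested genes given above. A call needs a mean above 1 RPKM, and the lists were not matched to all tested genes by level. By adjusted p alone, 53.7% and 49% of all tested genes passed. Of the 12 genes for ligand shedding and trafficking, 7 were called higher in RANK+ TECs and 1 lower in each comparison, with a median log2 fold change over reporter-negative TECs of 0.88 beside 0.06 over all genes. The metalloprotease genes Adam8 and Adam12 differed most. Adam8 was at 67.5, 37 and 39.4 RPKM in the RANK+ libraries and at most 0.589 RPKM in others (log2 fold change 6.95 and 6.90 against CCL21+ and reporter-negative TECs). Adam12 was at 3.88, 4.05 and 3.54 RPKM and at most 0.0507 RPKM in others (6.98 and 6.83). With 1 library left out, the values over reporter-negative TECs ranged from 6.42 to 7.58 for Adam8 and 6.05 to 8.42 for Adam12. Coded as CCL21+ over RANK+ TECs, the ranges were -7.6 to -6.49 for Adam8 and -7.86 to -6.57 for Adam12. Adam19 was at 79.9, 90.6 and 95.5 RPKM beside 8.71 to 19 RPKM, and the rhomboid protease gene Rhbdl2 at 18.3, 15.6 and 17.9 RPKM beside 1.98 to 5.08 RPKM. Rhbdf2, which encodes iRhom2, a carrier of ADAM17, was the member called lower, at 9.1, 8.83 and 8.41 RPKM beside 23.7 to 45.2 RPKM. Adam8 is also made by blood cells and Adam12 by mesenchymal cells, whose markers were given above with the ligands, and their part was not tested.

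Of 28 adaptor and kinase genes, 5 were called higher and 7 lower in RANK+ than in CCL21+ TECs, and 8 higher and 7 lower than in reporter-negative TECs, where the median log2 fold change was -0.26 beside 0.06 over all genes. Stat5a, a transcription factor that ErbB receptors can activate, was at 40.6, 29.5 and 32.7 RPKM in the RANK+ libraries, 7.96, 5.44 and 6.52 RPKM in the CCL21+ libraries and 2.32 and 2.44 RPKM in the reporter-negative libraries. Its log2 fold change was 2.24 (SE 0.14, adjusted p = 1.9e-06) and 3.72 (SE 0.18, adjusted p = 6.59e-07) in RANK+ TECs. Grb7, whose product binds ERBB2 and whose gene lies near Erbb2 on chromosome 11, was at 15.2, 12.2 and 14.4 RPKM in the RANK+ libraries, and it was lower in CCL21+ (2.77, 2.22 and 3.09 RPKM) than in reporter-negative libraries (4.67 and 5.85 RPKM, adjusted p = 0.00189). Pik3cb, a catalytic subunit of PI3K, was at 4.10, 4.13 and 4.10 RPKM in the RANK+ libraries and 0.885 to 1.06 RPKM in the others. Gab1, the docking protein downstream of EGFR, was called lower in RANK+ TECs against both, at 8.38, 11.3 and 10.1 RPKM in RANK+ libraries and 25.9 to 35.2 RPKM in the others.

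Of 19 feedback inhibitors of receptor tyrosine kinase and ERK signalling, 9 were called lower and 3 higher in RANK+ than in CCL21+ TECs, and 9 lower and 1 higher than in reporter-negative TECs, where the median log2 fold change was -0.49. Dusp6, an ERK phosphatase, was at 4.45, 4.02 and 3.56 RPKM in the RANK+ libraries, 17.3, 12.8 and 12 RPKM in the CCL21+ libraries and 18.4 and 24.3 RPKM in the reporter-negative libraries. Spry1, a Sprouty inhibitor, was at 1.66, 1.91 and 1.66 RPKM in the RANK+ libraries, 5.52, 4.89 and 5.94 RPKM in the CCL21+ libraries and 15.4 and 23.5 RPKM in the reporter-negative libraries. Its log2 fold change in RANK+ TECs was -1.76 (SE 0.15, adjusted p = 1.18e-05) and -3.58 (SE 0.17, adjusted p = 6.34e-07). Socs3 was lower as well, at 14.6 to 24.9 RPKM beside 33.6 to 76.7 RPKM. Dusp4, a nuclear ERK phosphatase, went the opposite way, at 107, 64.5 and 71.5 RPKM in the RANK+ libraries, 7.12, 3.71 and 4.26 RPKM in the CCL21+ libraries and 1.24 and 1.26 RPKM in the reporter-negative libraries (log2 fold change 3.88 and 5.89, adjusted p = 2.56e-06 and 1.63e-06). Spry4 was lowest in CCL21+ libraries (0.489 to 0.708 RPKM), and its levels in RANK+ (1.59 to 2.93 RPKM) and reporter-negative libraries (2.33 and 3.09 RPKM) overlapped.

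Of 18 ERK-responsive transcription targets, 5 were called lower and 3 higher in RANK+ than in each other population, and the median log2 fold change over reporter-negative TECs was -0.42. The PEA3-type ETS factor genes Etv5 and Etv4 fell in steps from reporter-negative to CCL21+ to RANK+ TECs. Etv5 was at 15.7 and 22.2 RPKM, then 6.42, 3.25 and 3.58 RPKM, then 1.77, 0.782 and 0.872 RPKM. Etv4 was at 4.74 and 7.3 RPKM, then 2.05, 1.17 and 1.52 RPKM, then 0.602, 0.475 and 0.505 RPKM. Each step passed the test for both genes, with a log2 fold change of RANK+ over reporter-negative TECs of -4.18 (SE 0.37) for Etv5 and -3.62 (SE 0.27) for Etv4. Plau, the urokinase gene, was at 11.5, 11.7 and 6.83 RPKM in RANK+ libraries and 29.7 to 56.8 RPKM in the others. Ccnd1, which encodes cyclin D1, was called higher in RANK+ TECs, at 15, 10.3 and 11.1 RPKM beside 0.885 to 3.16 RPKM. Ier3 was called lower in RANK+ TECs (7.78, 0.987 and 2.92 RPKM beside 9.46 to 33.5 RPKM), and its call against CCL21+ TECs was lost without CCL21+ replicate 1 (adjusted p = 0.0511) or RANK+ replicate 3 (adjusted p = 0.0613). Between CCL21+ and reporter-negative TECs, 17 of the 82 pathway genes were called, 8 higher and 9 lower in CCL21+ TECs. This is 20.7% beside 8.02% of all tested genes, again not matched by level. Beside Erbb4 and Egf, Dusp4 (log2 fold change 2.01), Stat5a (1.48), Rhbdl2 (1.12), Adam19 (0.92) and Rhbdf2 (0.67) were higher in CCL21+ TECs, and Spry4 (-2.22), Etv5 (-2.09), Fosl1 (-1.93), Etv4 (-1.92), Spry1 (-1.82) and Grb7 (-0.96) were lower. Of these, Adam19 missed the threshold without either reporter-negative library (adjusted p = 0.0831 and 0.119), and Fosl1, at 0.0458, missed it with DESeq2's size factors (0.0534), with the replicate number as a block (0.0809) and without most single libraries (up to 0.29).

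**Figure D5:**
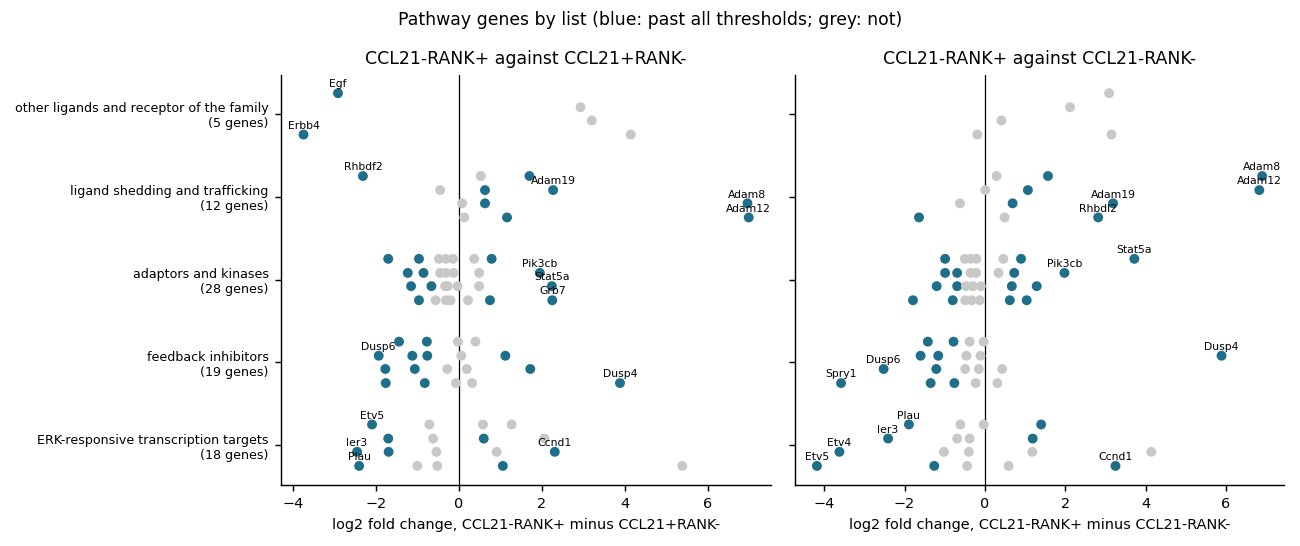
Log2 fold change (horizontal axis) of RANK+ TECs over CCL21+ (left) and reporter-negative (right) TECs for 82 pathway genes in 5 lists (rows; the vertical offset within a row only separates points). Blue points passed all thresholds and grey points did not, and Nrg3, at 0 counts in CCL21+ TECs, is drawn at its lower bound on the left. Adam8, Adam12, Dusp4 and Stat5a lie far right, and Spry1, Etv4 and Etv5 far left in the right panel.

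The genes whose pattern over the 8 libraries was most like that of 3 members were found by the root mean square difference of centred log2 CPM among 16977 genes. For Erbb2 these were Nfkbia, which encodes an inhibitor of NF-kappa-B (difference 0.0997), Herpud1, a gene of the endoplasmic reticulum stress response (0.101), and Serpinb9, which encodes a granzyme B inhibitor (0.111). For Tgfa they were Stat5a (0.0574), Psme1, which encodes a proteasome activator (0.117), and the potassium channel gene Kcnk6 (0.12). For Areg they were Xkr7 (0.23), Reg4 (0.238) and Chrna2 (0.326), which were at or near 0 in the RANK- populations and highest in RANK+ replicate 1. Areg was taken for its fitted log2 fold change, which rests on 0 counts in the RANK- populations. Like Areg, these 3 genes passed the filter on low counts only through the RANK+ libraries. Their difference between RANK+ and the other TECs was thus given by the filter. Stat5a was thus the gene nearest to Tgfa, with 40.6, 29.5 and 32.7 RPKM in the RANK+ libraries beside 5.70, 4.47 and 4.80 RPKM for Tgfa.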

How the data were processed

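The authors deposited 1 table of expected counts per gene, which RSEM divides among genes that share reads. The submitters' processing notes name bcl2fastq 2.20, Trimmomatic, STAR 2.5.1, RSEM 1.3.1 and mm10, whereas the study's methods name CLC Genomics Workbench. The labels name a directional NEBNext kit and the methods a stranded TruSeq kit. All 55450 identifiers matched GENCODE M21 (GRCm38), which gave positions and exon lengths. Between 6.887% and 19.41% of a library's counts fell on the noncoding gene Gm26917 and between 1.473% and 10.73% on Gm42418, and RPKM of other genes is lower for them. Counts were rounded and tested in edgeR 4.0.16 (R 4.3.3) by quasi-likelihood after TMM normalization and the default filter on low counts. The common biological coefficient of variation was 0.326, and libraries within a group differed beyond sampling noise (chi-square per gene 78.5 to 260). The SEs and p-values come from a model of counts that includes counting error. RPKM values of single libraries carry no interval, and the bounds of Areg and Ereg rest on a floor of 3 counts. On counts simulated for CCL21+ against RANK+ TECs (21451 genes, 200 of them changed 4-fold), edgeR passed 62% of the changed genes and 9 others, and DESeq2 67.5% and 47. Passing meant an adjusted p under 0.05 only. A far smaller part of the genes changed there than the 30.8% called in the data, so error rates in the data are not given by it. Alternatives used DESeq2 1.42.0 or limma 3.58.1 functions, other scalings, filters, thresholds, lengths and subsets of libraries. Named pathway genes were the up to 3 called genes of each list and comparison with the largest log2 fold change, and genes of like pattern were sought for the receptor and ligand of highest level and the member with the largest fold change. The members and lists were chosen with earlier results of these data known. One list of markers of other cells is not reported here.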

Additional observations from a re-analysis of the deposited data

How the results depend on the processing

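In RANK+ against either other population, the direction of the 7 members with at least 10 counts in every library held under every alternative run. The count of 9 called members held within 1.5 times. It includes Areg and Epgn, for which a difference was given by the filter on low counts. The filter of at least 10 counts in every library left 7 members, since it removed Areg, Ereg and Epgn. Between CCL21+ and reporter-negative TECs the count of called members moved from 1 to 3 by adjusted p alone and to 3 with the longest transcript as length, to 0 with edgeR's glmTreat (1 with DESeq2's Wald test), and to 0 to 1 when 1 library was left out. There glmTreat called 676 genes in all in place of 1720 and 9 pathway genes in place of 17, and leaving out a library gave 657 to 2066 and 10 to 18. Adjusted p alone called 11516 genes in place of 6617 for CCL21+ against RANK+ TECs and 10501 in place of 6332 for RANK+ against reporter-negative TECs. The direction reversed only in differences that did not pass the test, between the RANK- populations. For Epgn the fitted log2 fold change ranged from -4.15, without CCL21+ replicate 1, which leaves CCL21+ TECs at 0 counts so that this end is no measured fold, to 0.03 when 1 library was left out and was 0.03 without CCL21+ replicate 3. For Hbegf it was 0.01 with at least 10 counts, ranged from -0.30 to 0.23 with 1 library left out, and was 0.23 without CCL21+ replicate 2 and 0.12 without reporter-negative replicate 2. DESeq2's size factors moved the median log2 fold change of all genes from 0.062 to 0.199 for RANK+ over reporter-negative TECs. The deviations from the group means of CCL21+ and RANK+ libraries that share a number correlated at 0.126, 0.0485 and 0.0707. Those with different numbers correlated at -0.0984 to 0.041. Same-numbered CCL21+ and reporter-negative libraries correlated at -0.0528 and -0.117, and same-numbered RANK+ and reporter-negative libraries at -0.0519 and -0.0411. The sources do not state whether same-numbered libraries share embryos, so a pairing was not established. The fit with the replicate number as a block called 9, 1 and 9 members, as without it, and 6616, 1913 and 6324 genes, and of the named genes it ended the call of Fosl1 between CCL21+ and reporter-negative TECs (adjusted p = 0.0809).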
